A study of Mus musculus with 20 samples.

Results

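The genes described here are 10 genes of the meningeal fibroblast and of the extracellular matrix it makes: Ogn, Slc6a13, Fmod, Islr, Igfbp2, Dcn, Lum, Zic1, Aebp1 and Pcolce. They were the 10 named genes among 18193 genes with a probe set on the array, and every probe set whose annotation named one of them was taken. This gave 21 probe sets, 6 for Fmod, 3 for Aebp1, 2 each for Ogn, Zic1, Dcn and Pcolce, and 1 each for Slc6a13, Islr, Igfbp2 and Lum. The study measured neocortex of 20 male B6C3F1 mice (B6/C3H F1 hybrid), housed singly, with 1 Affymetrix array per animal, and asks how age and dietary vitamin E change expression in the brain. There were 4 groups of 5 mice. The control diet was fed to a young group, aged 5 months, and to an old control group, aged 30 months. Old α-tocopherol mice were 30 months old and had received 1000 mg/kg α-tocopherol from 15 months of age. Old mixture mice were 30 months old and had received 500 mg/kg of α- and 500 mg/kg of γ-tocopherol from the same age, so the mixture held less α-tocopherol than the other supplement. α- and γ-tocopherol are the main forms of vitamin E in the diet and differ by a methyl group on the chromanol ring.

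The meninges are the connective membranes around the brain, and the leptomeninges run over the surface of the neocortex and along the vessels that enter it. Their fibroblasts secrete collagens and the small leucine-rich proteoglycans that bind collagen fibrils and set their width, carry transporters that exchange solutes between blood, cerebrospinal fluid and brain, and keep transcription factors of the tissues that formed them. Dissected neocortex can hold more or less of this membrane. In such bulk RNA, fewer cells of a type and less RNA per cell cannot be told apart.

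Of the 21 probe sets, 17 lay above the limit for testing, a mean signal of 184, and all 10 genes kept at least 1. The 4 below it were 1438966_x_at of Fmod, 1441506_at of Dcn and 1450637_a_at and 1459298_at of Aebp1, which are given by value only. Among 38 other genes used as meningeal fibroblast markers, 24 lay above the limit, including the collagens Col1a1, Col1a2 and Col3a1 and the transcription factor Foxc1. The other 14 (Omd, Aspn, Dpt, Mfap4, Lama1, Slc22a2, Slc6a12, Crabp2, Foxc2, Foxd1, Tbx18, Twist1, Zic2 and Pi16) did not. All 9 markers of cortical neurons on the array were above it. Zic1 also marks other brain regions, among them cerebellum and septum, so it is no marker of meninges alone.

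Every array had a trimmed mean signal of 1000. The median signal ran from 316 to 331 in young control, from 284 to 313 in old control, from 280 to 318 in α-tocopherol and from 292 to 332 in mixture mice. The 3'/5' ratio of β-actin, a measure of RNA integrity, ran from 1.42 to 1.74 in young control, 1.73 to 2.52 in old control, 1.43 to 2.36 in α-tocopherol and 1.22 to 1.60 in mixture mice. The signal of 18S ribosomal RNA ran from 164 to 309 in young control, 464 to 656 in old control, 299 to 742 in α-tocopherol and 235 to 405 in mixture mice. It was thus higher in every old control mouse than in any young control or mixture mouse, and its part in the comparisons was not tested. Old control mouse 2 stood apart in the genes described here. It lay above the mean of its group for 10 of 10 of them, by 0.49 on the log2 scale on average, and results that change without it are given both ways. Differences below are on the scale of log2(signal + 16), with the standard error (SE) of limma's contrast and n = 5 mice a group. A difference is called where limma's p, adjusted by the Benjamini-Hochberg method over all 27022 probe sets tested, was under 0.05.

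On 1 probe set each, Zic1 and Fmod were called between old and young control mice, and the other genes were not. Zic1, a zinc finger transcription factor of the dorsal neural tube that meningeal cells keep, had signals of 2223, 2326, 2603, 2653 and 3108 in the young control mice on probe set 1423477_at. In old control mice they were 941, 1413, 1614, 1630 and 2198. The groups did not overlap, and the highest old value belonged to mouse 2. Zic1 fell by 0.76 on the log2 scale (SE 0.18, 1.70-fold, limma adjusted p = 0.00583). Its other probe set, 1439627_at, had a mean log2 signal of 9.94 ± 0.32 (SD, n = 5) in the young group and of 9.34 ± 0.85 in the old control group. That difference of -0.60 ± 0.31 was not called (limma adjusted p = 0.175), and old control mouse 2, at 1475, was above every young mouse. Without that mouse the second probe set was called as well (log2 difference -0.90, limma adjusted p = 0.0274).

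Fibromodulin, Fmod, a proteoglycan that binds collagen and guides fibril assembly, gave different answers on its probe sets. On 1437718_x_at the signals were 260.0, 300, 308, 313 and 358 in young control mice. In old control mice they were 390, 419, 440, 560 and 608. All old mice were above all young mice, and this probe set rose by 0.61 on the log2 scale (SE 0.14, 1.53-fold, limma adjusted p = 0.0048). The groups did not overlap on 1437324_x_at either (log2 difference 0.42 ± 0.16, limma adjusted p = 0.0704). The brightest probe set, 1415939_at, had a difference of -0.02 ± 0.16, and 1437685_x_at and 1456084_x_at had 0.24 and 0.21. The 5 probe sets of the members with the suffix _x, all of Fmod, may cross-hybridise with other transcripts. The Fmod probe sets were correlated with each other by r = 0.13 to 0.61 over the 20 arrays once group means were removed. The call on 1437718_x_at was lost once the fit took in the β-actin ratio (0.44, limma adjusted p = 0.105). That fit called 2028 of all 27022 probe sets between old and young control mice, against 5097 without the ratio. The ratio had a mean of 1.52 in young and 2.04 in old control mice, with a slight overlap, and its part was not tested.

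Of the 17 probe sets 2 were called between old and young control mice, beside 18.9% of all probe sets. Of these 1 was higher, beside 9.33% of all, and 1 lower, beside 9.54%. At an unadjusted p under 0.05 there were 4 of 17, beside 33.5%, of which 2 were higher (14.8%) and 2 lower (18.7%). Of the 17 differences 8 were above 0, beside 42.8%. The groups did not overlap for 2 that were higher and 1 that was lower, beside 7.09% and 7.19% of all probe sets. The median difference was -0.02, that of all probe sets -0.05. Decorin, Dcn, which binds collagen and growth factors of the TGF-β family, differed by -0.05 ± 0.14 on 1449368_at, and lumican, Lum, its close relative, by 0.07 ± 0.22. The other Dcn probe set, 1441506_at, lay under the limit and was not tested. Its mean log2 signal was 8.02 ± 0.36 (SD, n = 5) in young and 7.46 ± 0.47 in old control mice. Osteoglycin, Ogn, had 0.09 ± 0.17 on 1419663_at and -0.46 ± 0.21 on 1419662_at (limma adjusted p = 0.75 and 0.119). Pcolce, the enhancer of procollagen C-proteinase, had -0.41 ± 0.22 on 1437165_a_at and -0.03 ± 0.16 on 1448433_a_at. The former was called without old control mouse 2 (-0.61, limma adjusted p = 0.0427). With array medians set equal, which moved the median of all probe sets from -0.05 to 0.09, the median of the members went from -0.02 to 0.11.

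**Figure D1:**
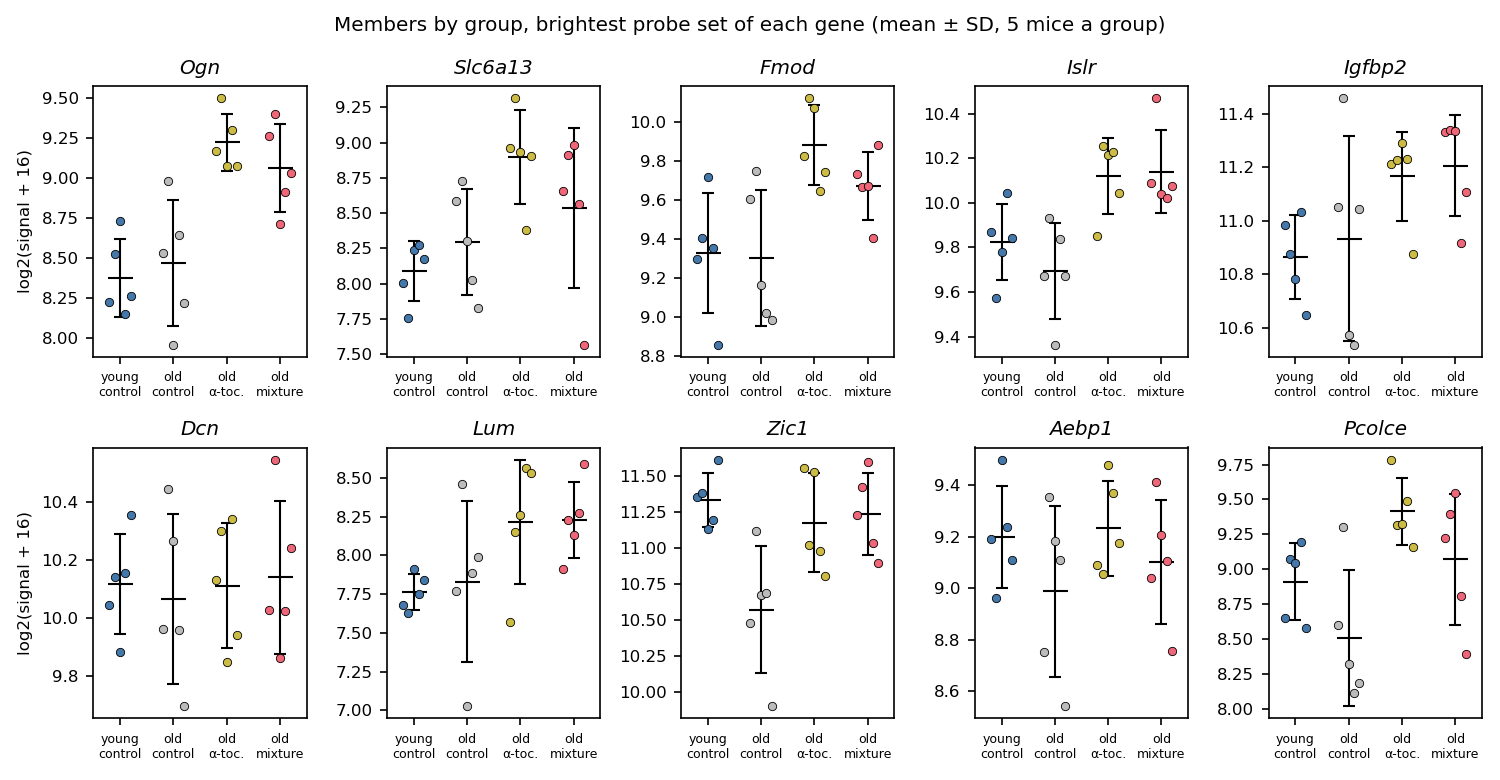
Log2(signal + 16) of the brightest probe set of each of the 10 genes in the 4 groups. Points are the 5 mice of a group, and bars give the mean ± SD. Zic1 was lower in old than in young control mice, and the 5 α-tocopherol mice were above the 5 old control mice for Ogn.

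The comparisons of the supplements share the old control mice, so a chance low or high value in those 5 mice enters all of them alike. With α-tocopherol no probe set of the array passed the adjusted threshold in limma, so none of the differences in this comparison is called. All 17 of the members' differences were above 0, where 52.1% of all probe sets were (under other scalings too; Dcn fell just below 0 without some single mice), and their median was 0.42, that of all probe sets 0.01. At an unadjusted p under 0.05 there were 10 of 17 higher and 0 lower, beside 3.19% and 2.26% of all probe sets, and 5.45% of the array in either direction. Several of the 17 belong to the same gene, and on the brightest probe set of each gene 6 of 10 were higher and 0 lower. Adjusted p ran from 0.883 to 0.975, and 0 of 17 were called, as was 0% of the array. The genes were chosen after earlier results on these arrays had shown several of these differences, so the counts describe them and are no independent evidence.

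Promoters of 4 genes are shown: Islr and Zic1, which were called with the mixture, and Ogn and Pcolce, which had the smallest unadjusted p with α-tocopherol. They are the 250 bases before the RefSeq transcription start in build GRCm38.p6, on the strand of the gene: Ogn at chr13:49607765-49608014 (+), Islr at chr9:58158555-58158804 (-), Zic1 at chr9:91365769-91366018 (-) and Pcolce at chr5:137611405-137611654 (-). Capitals mark matches on either strand to the letters of a TATA box (TATAAA), a GC box (GGGCGG), an AP-1 site (TGANTCA) or a TEAD site (GGAATG). The only overlap is that of the TATA box letters of both strands in Ogn.
Ogn: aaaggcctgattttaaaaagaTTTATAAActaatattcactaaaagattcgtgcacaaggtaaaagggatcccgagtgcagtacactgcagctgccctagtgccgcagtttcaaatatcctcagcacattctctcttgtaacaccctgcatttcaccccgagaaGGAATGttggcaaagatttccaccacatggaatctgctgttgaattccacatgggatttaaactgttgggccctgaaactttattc
Islr: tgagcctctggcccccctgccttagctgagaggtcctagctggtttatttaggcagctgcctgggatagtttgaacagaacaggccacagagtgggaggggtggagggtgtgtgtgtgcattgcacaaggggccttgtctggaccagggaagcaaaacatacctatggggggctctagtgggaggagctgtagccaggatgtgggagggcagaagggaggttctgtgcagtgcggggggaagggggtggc
Zic1: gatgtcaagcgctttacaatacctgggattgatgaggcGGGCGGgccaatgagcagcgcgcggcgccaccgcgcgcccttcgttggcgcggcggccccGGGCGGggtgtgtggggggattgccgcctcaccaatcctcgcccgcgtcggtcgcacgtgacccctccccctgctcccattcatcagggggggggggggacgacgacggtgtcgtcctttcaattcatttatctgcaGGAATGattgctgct
Pcolce: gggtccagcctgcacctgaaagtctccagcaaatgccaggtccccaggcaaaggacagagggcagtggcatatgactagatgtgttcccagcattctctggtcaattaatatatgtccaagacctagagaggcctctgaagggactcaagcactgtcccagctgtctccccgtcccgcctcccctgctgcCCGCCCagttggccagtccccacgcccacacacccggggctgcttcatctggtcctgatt

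The Zic1 window had 27 CpG dinucleotides and 66% G and C, the Ogn window 4 and 42%, Pcolce 5 and 58.8%, and Islr 1 and 59.6%, where the medians over 32851 RefSeq windows were 6 and 52.4%. Among the 8 genes with a window in the RefSeq table, TATA box letters occurred in 1 (Ogn), GC box letters in 4 (Slc6a13, Igfbp2, Zic1 and Pcolce), AP-1 letters in 1 (Igfbp2) and TEAD letters in 3 (Ogn, Slc6a13 and Zic1). Over all windows the shares were 12.4%, 32.7%, 6.75% and 12.6%. The 8 genes had 11 windows, and a gene was counted if any of its windows matched. The shares are per single window, so the counts and shares are not on the same footing. No motif was shared by the 4 promoters shown. These matches describe the letters of the windows and say nothing of binding.

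Osteoglycin, a small leucine-rich proteoglycan of the matrix, had the smallest p of the members with α-tocopherol. On 1419663_at its signals were 233, 282, 354, 385 and 490.0 in old control mice. With α-tocopherol they were 523, 525, 561, 615 and 708. Every α-tocopherol mouse was above every old control mouse, as was the case for 0.437% of all probe sets. The young control mice, at 268, 283, 291, 353 and 409, lay within the range of the old control mice. The difference from old control was 0.76 ± 0.17 on the log2 scale (1.69-fold, unadjusted p = 0.000239, limma adjusted p = 0.883). The dimmer probe set 1419662_at had 0.57 ± 0.21, with 4 of 5 α-tocopherol mice above the highest old control mouse.

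Pcolce, which binds procollagen and speeds the removal of its C-terminal propeptide, had the largest difference among the brightest probe sets of the members. On 1437165_a_at old control mice had signals of 260, 275, 304, 373 and 617, the last of them mouse 2. α-Tocopherol mice had 556, 621, 625, 701 and 866. Only that old control mouse reached into the α-tocopherol range. The difference was 0.91 ± 0.22 (1.88-fold, unadjusted p = 0.000419, limma adjusted p = 0.883), and 1.11 without old control mouse 2. On 1448433_a_at, which was correlated with the former by r = 0.62 over the arrays, it was 0.18 ± 0.16.

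Fmod and Islr overlapped with old control in part. Fmod 1415939_at gave 491, 504, 559, 762 and 843 in old control mice. With α-tocopherol it gave 786, 841, 892, 1060 and 1098. Both groups overlapped, through old control mouse 2 and the lower pair of α-tocopherol mice (log2 difference 0.58 ± 0.16, limma adjusted p = 0.883). The other tested Fmod probe sets had 0.65, 0.28, 0.21 and 0.15. Islr, a secreted leucine-rich repeat protein with an immunoglobulin domain that marks mesenchymal cells, gave 644, 799, 801, 899 and 961 in old control mice and 909, 1039, 1172, 1184 and 1207 with α-tocopherol. Of the latter 4 were above all old control mice (0.42 ± 0.12, limma adjusted p = 0.883).

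Slc6a13, the transporter GAT2, takes up γ-aminobutyric acid and taurine and is found in leptomeninges and liver rather than in neurons. Old control mice had signals of 211, 245, 300, 369 and 408, and α-tocopherol mice 317, 464, 473, 484 and 621. A single α-tocopherol mouse fell into the old control range (0.60 ± 0.23, limma adjusted p = 0.883). Among the remaining genes the differences with α-tocopherol were 0.60 ± 0.18 and 1.01 ± 0.31 for the probe sets of Zic1 and 0.39 ± 0.22 for Lum. They were 0.24 ± 0.15 for Aebp1, a secreted carboxypeptidase-like protein of collagenous matrix, and 0.23 ± 0.14 for Igfbp2, a binding protein of insulin-like growth factors that leptomeninges secrete. Dcn had 0.05 ± 0.14, with an interval of the difference from -0.25 to 0.34 that holds no change of 1.5-fold. The 4 probe sets under the limit were dim. For Aebp1 1459298_at, for example, signals ran from 20.4 to 178 over old mice of the supplement groups and from 33.7 to 140.0 in old control mice. Its mean log2 signals in young control, old control, α-tocopherol and mixture mice were 6.78, 6.43, 5.92 and 6.34. In the same order they were 6.78, 6.99, 6.82 and 7.18 on Aebp1 1450637_a_at and 7.27, 7.07, 7.67 and 7.26 on Fmod 1438966_x_at. On Dcn 1441506_at they were 8.02, 7.46, 7.28 and 7.52.

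With the mixture, Islr and both probe sets of Zic1 rose, and the other members were not called. Of the 17 probe sets 3 were called, all higher, beside 3.59% of the array called in either direction, 1.3% called higher and 2.29% called lower. Islr had signals of 1025, 1038, 1064, 1072 and 1401 in mixture mice, all above the highest old control mouse at 961. Groups did not overlap in this direction for 2.69% of all probe sets and in the other for 3.03%; among the members Islr was the only one. It rose by 0.44 ± 0.12 on the log2 scale (1.36-fold, limma adjusted p = 0.0392). Zic1 1423477_at had 1885, 2074, 2382, 2728 and 3077 in mixture mice, of which 3 were above old control mouse 2 and all above the other old control mice. Its rise was 0.66 ± 0.18 (1.58-fold, limma adjusted p = 0.0448). On 1439627_at old control mice had 312, 469, 519, 875 and 1475 and mixture mice 858, 1221, 1478, 1579 and 2057. This probe set rose by 1.11 ± 0.31 (2.16-fold, limma adjusted p = 0.0475). The mixture mice thus had Zic1 levels within the range of the young control mice, or above it, on the 2 probe sets, except for the mice at 1885 and 2074.

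These calls lay close to the threshold. Neither the 18S signal nor the β-actin ratio overlapped between mixture and old control mice, and with the ratio in the fit no probe set of the array was called. The differences were then 0.30 ± 0.16 for Islr and 0.95 ± 0.23 and 1.18 ± 0.43 for Zic1 (limma adjusted p = 0.844, 0.519 and 0.792). The calls were lost after quantile normalization (limma adjusted p = 0.107 for Islr and 0.0917 and 0.0959 for Zic1), with array medians set equal (0.113, 0.0821 and 0.0637) and with Ttr as a covariate (0.098, 0.0844 and 0.101). Over the alternatives the adjusted p ran from 0.0271 to 0.844 for Islr and, for the probe sets of Zic1, from 0.0203 to 0.519 and from 0.0141 to 0.792. Islr was called in 17 of 34 alternatives and Zic1 in 11 of 34 and 9 of 33. Without old control mouse 2 the count of called probe sets went from 3 to 5, and the 2 that were added were Ogn 1419663_at and Pcolce 1437165_a_at. Without old control mouse 1, 3, 4 or 5, or mixture mouse 1, 2, 4 or 5, it was 0. Without young control mouse 1, 2 or 3, or α-tocopherol mouse 2 or 4, it was 1.

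Ogn missed the threshold with the mixture. Its signals on 1419663_at were 404, 467, 507, 598 and 662, of which 3 were above all old control mice (log2 difference 0.60 ± 0.17, limma adjusted p = 0.0562). Pcolce 1437165_a_at gave 319, 432, 581, 656 and 732, spread over most of the range of the other old groups (0.57 ± 0.22, limma adjusted p = 0.147). Slc6a13 gave 174, 362, 388, 466 and 489, where mouse 5 lay below every old control mouse (0.24 ± 0.23, limma adjusted p = 0.604). For the brightest Fmod probe set the difference was 0.37 ± 0.16, and for 1437324_x_at it was -0.12 ± 0.16, the only negative value of the 17. Lum had 0.40 ± 0.22, Igfbp2 0.27 ± 0.14, Aebp1 0.12 ± 0.15 and Dcn 0.07 ± 0.14. At an unadjusted p under 0.05 there were 7 of 17 higher and 0 lower, beside 11.3% and 8.74% of all probe sets, and 20.1% in either direction. On the brightest probe set of each gene 5 of 10 were higher and 0 lower. The median difference was 0.27, that of all probe sets 0.03, and 16 of 17 were above 0, where 56.2% of all were; with array medians set equal 3 more (Fmod 1437685_x_at and 1437718_x_at and Dcn) lay just below 0. The median was 0.44 without old control mouse 2 and 0.19 without old control mice 3 and 5. In that group mouse 2 had the highest mean log2 deviation of the members (0.49) and mice 3 and 5 the lowest (-0.18 and -0.26). The direction of both changes thus follows from the choice of mice.

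**Figure D2:**
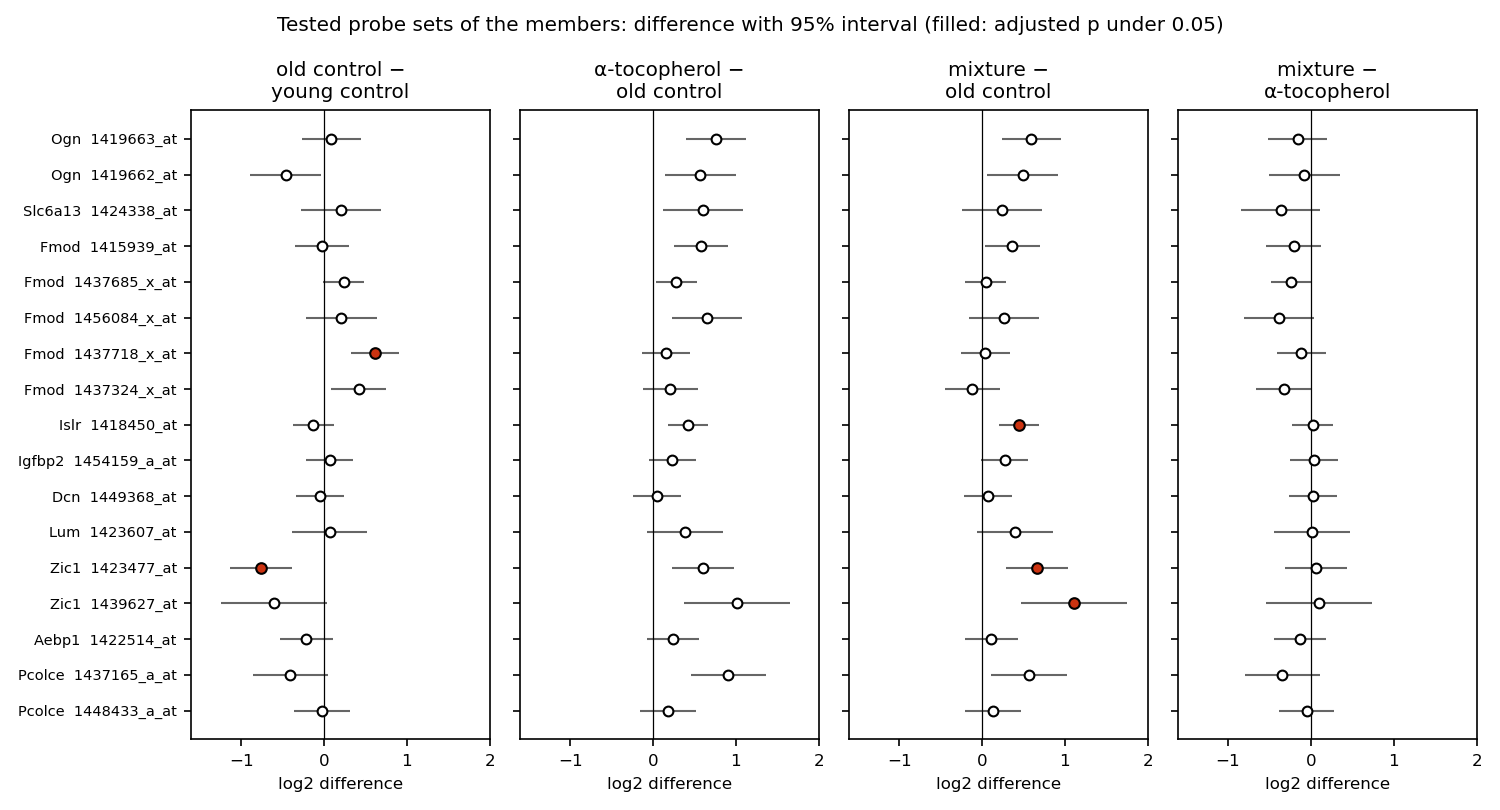
Log2 differences (points) with 95% intervals of limma's contrast (lines) for the 17 tested probe sets of the 10 genes in 4 comparisons; filled points had an adjusted p under 0.05. In the comparison with age 2 points are filled, with the mixture 3, and in the panels of α-tocopherol against old control and of the mixture against α-tocopherol none.

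The mixture was set against α-tocopherol directly to ask whether the supplements differed. They were given at the same total amount, but the mixture replaced part of the α-tocopherol with γ-tocopherol. In limma 0 of 17 member probe sets and 0% of the array were called, and at an unadjusted p under 0.05 there were 0 of 17, beside 8.39%. Of the 17 differences 6 were above 0, beside 55.2% of all. The largest differences were -0.38 (95% interval -0.81 to 0.04) for Fmod 1456084_x_at, -0.36 (-0.84 to 0.11) for Slc6a13 and -0.34 (-0.80 to 0.11) for Pcolce 1437165_a_at, all lower with the mixture. Islr had 0.02 (-0.22 to 0.26), Ogn 1419663_at -0.16 (-0.52 to 0.20) and Zic1 1423477_at 0.06 (-0.32 to 0.43). Each interval holds differences in both directions, so neither a difference between the supplements nor a like effect is shown.

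With the 10 supplemented mice set against the 5 old control mice, 0 of 17 were called, and 1 of all 27022 probe sets was (0.0037%). At an unadjusted p under 0.05 there were 10 of 17 higher, beside 8.74%, and 7 of 10 on the brightest probe set of each gene. All 17 were above 0, beside 54.2%, with a median of 0.42 (Fmod 1437324_x_at lay just below 0 under the other scalings), and the lowest adjusted p was that of Ogn 1419663_at (0.68 ± 0.15, limma adjusted p = 0.108). For Ogn 8 of 10 supplemented mice were above the highest old control mouse, for Islr 9 of 10 (0.43 ± 0.10, adjusted p = 0.111). Without old control mice 3 and 5 the median of the 17 was 0.19, less than that of the full groups by more than 1.5 times. These mice had the lowest means of the members in their group, so a smaller median follows from leaving them out. Without old control mouse 2 the count of called probe sets was 3 (Ogn 1419663_at, Pcolce 1437165_a_at and Zic1 1439627_at), and without α-tocopherol mouse 1 it was 2 (Ogn 1419663_at and Islr).

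Other genes of the same membrane and matrix were called in small numbers. Of the 24 tested markers of meningeal fibroblasts that are not among the 10, 2 rose with age, Efemp1, a fibulin (log2 difference 0.61 ± 0.11, adjusted p = 0.000681), and Ptgds, the prostaglandin D synthase of leptomeninges (0.31 ± 0.09, adjusted p = 0.0223). In the same comparison 2 fell, the cadherin Cdh11 (-0.28 ± 0.09, adjusted p = 0.0324) and the organic cation exporter Slc47a1 (-0.72 ± 0.24, adjusted p = 0.0365). Over all genes, each on its brightest probe set, 21% were called in this comparison, 11.7% higher and 9.3% lower. Of the 24, 6 were above 0 with age, beside 42.8% of all probe sets, with a median of -0.20. At an unadjusted p under 0.05 there were 2 higher and 6 lower, beside 14.8% and 18.7% of all probe sets. With α-tocopherol 19 of the 24 were above 0, beside 52.1% of all probe sets, with a median of 0.19, and 0 were called. At an unadjusted p under 0.05 there were 5 higher and 0 lower, beside 3.19% and 2.26%. Slc47a1 had 0.82 ± 0.24 and Gjb2, a gap junction protein of meningeal cells, 0.44 ± 0.14. With the mixture Cdh11 rose (0.35 ± 0.09, adjusted p = 0.0378) beside 3.69% of all genes called, 1.03% higher and 2.67% lower. Of the 24, 16 were above 0, beside 56.2% of all probe sets, with a median of 0.11. At an unadjusted p under 0.05 there were 4 higher and 2 lower, beside 11.3% and 8.74% of all probe sets.

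Among 25 tested genes of proteoglycan and collagen assembly, 1 rose with age, the growth factor Tgfb1 (0.75 ± 0.17, adjusted p = 0.00353), and 2 fell, the fibril collagen chain Col5a1 (-0.41 ± 0.12, adjusted p = 0.0183) and the proteoglycan Epyc (-0.69 ± 0.22, adjusted p = 0.0299). None was called with either supplement. The unadjusted p was under 0.05 for 1 with α-tocopherol, which was higher, beside 5.45% of all probe sets in either direction. With the mixture it was for 4, of which 3 were higher and 1 lower, beside 20.1%. The smallest p belonged to elastin, Eln, in both comparisons (0.44 ± 0.11 with α-tocopherol and 0.29 ± 0.11 with the mixture). Of 8 tested genes of the insulin-like growth factor axis other than Igfbp2, 3 rose with age (Igfbp5 by 0.96, Igfbp6 by 0.53 and Igfbp4 by 0.21) and Igf1 fell by 0.67, while Igfbp2 itself had 0.07 ± 0.14. With the supplements 0 of these 8 were called or had an unadjusted p under 0.05. Of 4 tested relatives of Slc6a13 in the Slc6 family 0 were called in any comparison. The creatine transporter Slc6a8 came nearest (-0.26 ± 0.08 with the mixture, adjusted p = 0.0624). At an unadjusted p under 0.05 there was 1 with age, 0 with α-tocopherol and 1 with the mixture.

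Markers of tissue next to the neocortex moved in part with these genes. Of 10 tested choroid plexus genes 10 were above 0 with α-tocopherol (median 0.35), beside 52.1% of all probe sets. With the mixture 10 were above 0 (median 0.54), beside 56.2%. At an unadjusted p under 0.05, 3 were higher with α-tocopherol, 4 with the mixture and 0 lower with either. With age 1 was above 0 (median -0.39), beside 42.8%, and 5 were lower at such a p, where the median of the members was -0.02. Klotho, Kl, fell with age (-1.05 ± 0.37, adjusted p = 0.0494) and rose with the mixture (1.48 ± 0.37, adjusted p = 0.0304). The summed signal of the 12 choroid plexus genes on the array, most of it from the transthyretin gene Ttr, ran from 29273 to 43512 in young control, 11190 to 53193 in old control, 19100 to 49418 in α-tocopherol and 33084 to 40102 in mixture mice. Among old control mice it was 49744 in mouse 2 and 53193 in mouse 5, which had the highest and the lowest mean of the members, and at most 16142 in the other 3. Of 5 tested macrophage genes of the brain borders, Mrc1 and Pf4 fell with age (-0.61 ± 0.14 and -0.42 ± 0.15, adjusted p = 0.00552 and 0.0493). All 5 were above 0 with α-tocopherol and 4 with the mixture, and 0 were called (1 and 0 at an unadjusted p under 0.05). Of 6 ependymal genes Dynlrb2 and Tmem212 fell with age (-0.84 and -0.55), and 0 were called with a supplement (0 with α-tocopherol and 2, both higher, with the mixture at an unadjusted p under 0.05). Of the 6, 2 were above 0 with age (median -0.21), 4 with α-tocopherol (median 0.11) and 5 with the mixture (median 0.18). The part of such tissue in the results for the 10 genes was not tested beyond the fit with Ttr as a covariate. In that fit the median difference of the 17 probe sets was 0.38 with α-tocopherol and 0.23 with the mixture.

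Vessel and regional markers had few calls. Of 11 endothelial genes 1 rose with age (the glucose transporter Slc2a1, 0.62 ± 0.12) and 2 fell (Cdh5 and Cldn5), and of 9 genes of pericytes and smooth muscle 2 rose (Vtn, 0.64 ± 0.11, and Kcnj8, 1.10 ± 0.33). Neither list had a call with a supplement in limma. At an unadjusted p under 0.05 the mixture gave 4 endothelial genes (3 higher and 1 lower, beside 20.1% of all probe sets) and α-tocopherol 0, with 0 for the other list. Of 9 genes of striatum and septum 0 were called in any comparison, and 1 had an unadjusted p under 0.05 (with the mixture). Of 5 cerebellar genes 1 fell with age (Pcp2, -0.55 ± 0.19, adjusted p = 0.0427), and of 9 cortical neuron genes 2 rose with age (Slc17a7, 0.63 ± 0.12, and Cux2, 0.51 ± 0.13), with 0 called for either list with a supplement. Of the 5 cerebellar genes 1 was above 0 with age (median -0.24), beside 42.8% of all probe sets. With α-tocopherol 4 were (median 0.09), beside 52.1%, and with the mixture 4 (median 0.19), beside 56.2%. Of the 9 genes of striatum and septum 6, 2 and 3 were above 0 in these comparisons (medians 0.05, -0.08 and -0.05). At an unadjusted p under 0.05 there were 1 cerebellar and 1 cortical gene with α-tocopherol, and 0 and 4 with the mixture. The cerebellar gene was higher. The cortical neuron genes with such a p were lower with either supplement, and with the mixture 2 of 9 were above 0, with a median of -0.23 (lowest limma adjusted p = 0.0562, for Cux2).

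The 10 genes varied together between mice of the same group, but much of this came from 1 animal. With group means removed, the 45 pairs of genes had a mean correlation of r = 0.30 over the 20 arrays, from -0.23 to 0.70. Of the pairs 8 had r of 0.5 or more (17.8%, beside 3.55% of all pairs of genes on the array), and 42 were positive (93.3%, beside 50.3%). Without old control mouse 2 the mean was 0.11, 3 pairs had r of 0.5 or more (6.67%, beside 4% of all pairs over the same 19 arrays) and 28 were positive (62.2%). Leaving out any other mouse gave a mean r between 0.26 and 0.33. Removing Ttr along with the group means gave 0.31, and removing the β-actin ratio 0.35.

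The closest pair was Igfbp2 and Pcolce, with Pearson's r = 0.70 and Spearman's rho = 0.68 over 20 arrays. The permutation p, from 100000 shufflings of the mice within groups, was 0.00358 and 0.005, and adjusted over the 45 pairs 0.16 and 0.132. Without the 2 mice farthest from the median of Igfbp2 r was 0.53, without the 2 farthest from that of Pcolce 0.62, and without old control mouse 2 alone 0.54. Slc6a13 and Pcolce had r = 0.66 and rho = 0.65 (permutation p = 0.0071 and 0.00585, adjusted 0.16 and 0.132). Without the 2 mice farthest from the median of Slc6a13 r was 0.62, and without the 2 farthest from that of Pcolce, old control mouse 2 and mixture mouse 5, it was 0.45. Without old control mouse 2 alone it was 0.62. Islr and Lum had r = 0.59 and rho = 0.42 (permutation p = 0.019 and 0.0933, adjusted 0.257 and 0.382), r = 0.53 without the 2 mice farthest from the median of Islr and 0.50 without old control mouse 2. Without the 2 farthest from the median of Lum, old control mouse 3 and α-tocopherol mouse 1, r was 0.25, so this pair rests in part on them. Of the 45 pairs 7 had a permutation p under 0.05 for r, and 0 after adjustment.

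The genes did not form 1 even block. Pcolce had the highest mean r with the other 9 (0.40) and Lum the lowest (0.13), with r = -0.23 to Zic1 and -0.20 to Slc6a13. Without old control mouse 2 Lum had r = -0.60 to Zic1 and -0.43 to Slc6a13. Its r to Pcolce went from -0.04 to -0.47, while it had 0.50 to Islr and 0.23 to Ogn. Dcn and Lum lie next to each other on chromosome 10 in the RefSeq table, and their r was 0.06 (permutation p = 0.83), -0.19 without the 2 mice farthest from the median of Dcn and 0.32 without the 2 farthest from that of Lum. Without old control mouse 2 alone it was -0.20. The 2 probe sets of Zic1 followed each other most closely (r = 0.90), the tested pair of Pcolce had r = 0.62 and the pair of Ogn 0.47. Pairs that held a probe set under the limit had r = -0.23 for Dcn and -0.09 to 0.23 for Aebp1. The median SD within groups was 0.28 on the log2 scale for the 10 genes and 0.18 for all genes tested.

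**Figure D3:**
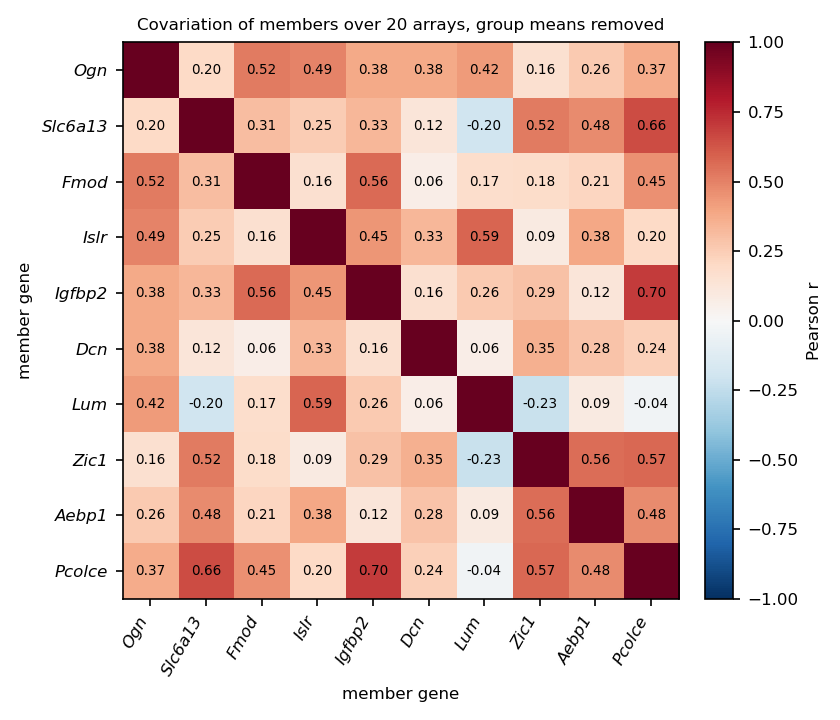
Pearson's r between the brightest probe sets of the 10 genes over 20 arrays, with the mean of each group removed. Igfbp2 and Pcolce had the highest value (0.70), and Lum had negative values with Zic1 (-0.23) and Slc6a13 (-0.20).

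**Figure D4:**
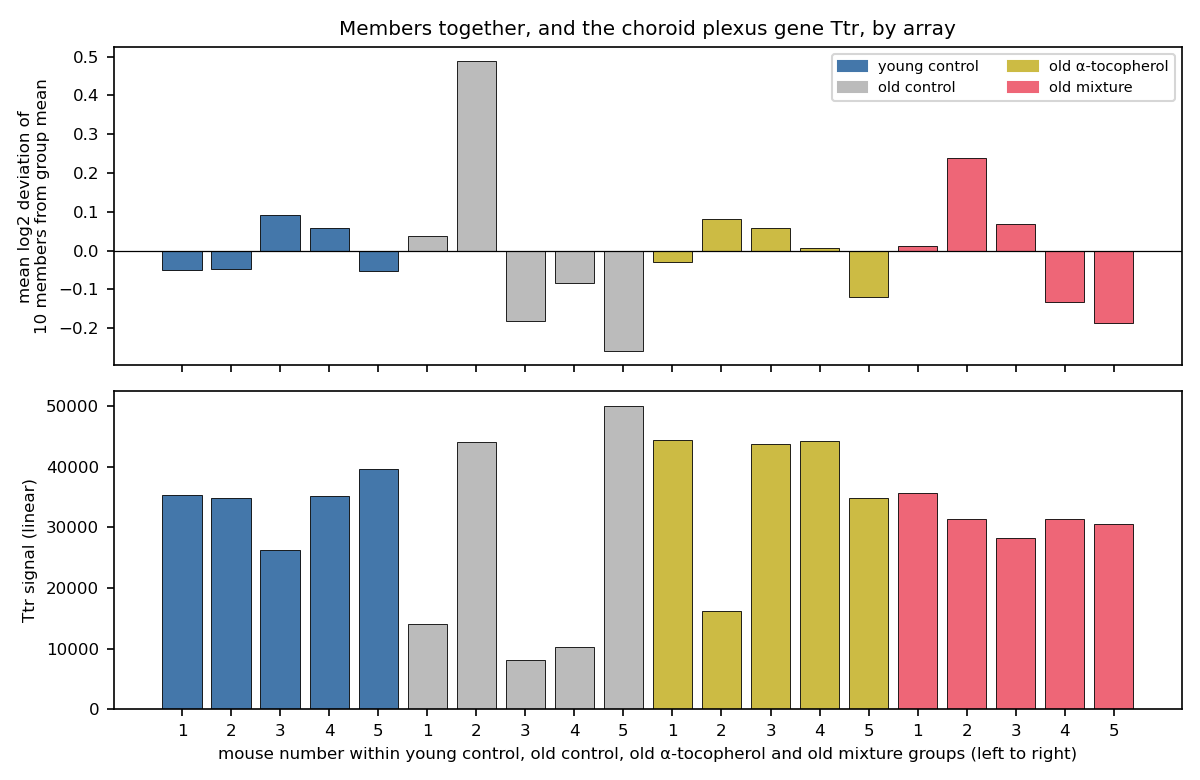
Upper panel, the mean log2 deviation of the 10 genes from their group means in each of the 20 mice; lower panel, the linear Ttr signal of the same arrays. Old control mouse 2 had the highest deviation (0.49), and old control mouse 5, with the highest Ttr signal, the lowest (-0.26).

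The genes outside the 10 whose group-centred signal was most like the mean of the members over the 20 arrays were Fzd2, a Wnt receptor (r = 0.74), Tro (0.74), Sys1 (0.72), Fstl5 (0.72), Hs6st2 (0.72), the BMP antagonist Nbl1 (0.72), Gpr173 (0.71), Utp6 (0.71), Atp9a (0.71) and Prr3 (0.71). These are the highest of the 13351 genes tested and are given as a description. Without old control mouse 2 their r ran from 0.45 for Fstl5 to 0.79 for Atp9a. For single members the closest genes were Slc6a20a for Ogn (r = 0.88), the amino acid transporter gene, which itself fell with age (-0.48 ± 0.15, limma adjusted p = 0.0307), Clic4 for Slc6a13 (0.90) and Diras1 for Fmod (0.75). They were Gata1 for Islr (0.80), Man1b1 for Igfbp2 (0.82), C230037L18Rik for Dcn (0.80), Mesp2 for Lum (0.82), Tunar for Zic1 (0.88), Gprin2 for Aebp1 (0.81) and Psen2 for Pcolce (0.76). Slc6a20a had 0.47 ± 0.15 with α-tocopherol and 0.40 ± 0.15 with the mixture (limma adjusted p = 0.883 and 0.129). None of these genes is on the lists of meningeal, vascular or choroid plexus markers used here, which do not name every such gene.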

How the data were processed

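The deposited table holds linear signal intensity values per probe set, 1 array per mouse, made with the Affymetrix software GCOS (version not given) per the submitters' processing notes. The sources used here do not give the background correction or probe summary. All 20 columns had a 2% trimmed mean of 1000, so deposited values were used unchanged. Scaling of this kind hides any shift common to all transcripts. Of 45037 probe sets other than controls, 34945 had 1 gene symbol in the platform annotation, 932 several and 9160 none; 34741 of the former were matched to RefSeq. Those in the top 60% by mean log2 signal (27022) entered limma 3.58.1 under R 4.3.3 (lmFit, contrasts, eBayes with intensity trend, two-sided, all arrays in 1 fit) on log2(signal + 16), which understates changes of dim genes. The number of arrays, 5 a group, limits the precision. Per the labels each array is a separate animal.

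All member probe sets are described. Other genes are named by rule: from each list at most 4 called genes or, with none called, the 2 of smallest p, and the genes most like the members over arrays. The members, the 12 gene lists and the tests were chosen with earlier results of these data known. The fit was run on simulated data with planted changes and independent noise for each probe set. That setting lacks the variation that genes share between mice, so it is no measure of power here. Alternatives were 2 other pseudocounts, other filters, probe set choices, normalizations, covariates, a replicate block and leaving out each mouse. Deviations of same-numbered mice were correlated by r = -0.11 to 0.20, and 7 of 30 pairs had r above 0.1. No label pairs these mice, so the numbers were not taken as pairs.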

Additional observations from a re-analysis of the deposited data

Results flagged for a closer look

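In 84 combinations of a member probe set and a group of 5 mice, 5 held a mouse whose gap to its nearest neighbour was more than 0.71 of the whole range, Dixon's limit, which chance passes in about 1 of 20 groups. In mixture mouse 2 Islr had a signal of 1400.7, the next being 1072.4 (gap 0.855 of the range). Mixture mouse 1 had 399 on Fmod 1437324_x_at, the next being 259.9 (0.739). α-Tocopherol mouse 5 had an Igfbp2 signal of 1860.8, below the next at 2359.7 (0.815). The other 2 were on probe sets of Aebp1 under the limit. Old control mouse 2 had 283.2 on 1450637_a_at, the next being 97.4 (0.783), and young control mouse 3 had 43.1 on 1459298_at, the next being 100.5 (0.773).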

How the results depend on the processing

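No called difference changed sign in any of the 34 alternatives, and with α-tocopherol against old control, and with the mixture against α-tocopherol, 0 member probe sets were called in any of them. Between old and young control mice the count of 2 became 1 in the top 40% of probe sets, with the brightest probe set per gene and with the β-actin covariate, and 4 with array medians set equal (3 higher, 1 lower). It became 3 after quantile normalization or cyclic loess and without intensity trend (2 higher, 1 lower), where Fmod 1437324_x_at was called as well. Leaving out 1 mouse at a time gave 2 to 4, the highest without old control mouse 2. Zic1 1423477_at was called in 34 of 34. With the mixture the count of 3 became 0 with no filter, with array medians set equal, after quantile normalization or cyclic loess, with a β-actin or Ttr covariate, with only the groups compared, without intensity trend, and without old control mice 3 and 5; leaving out 1 mouse gave 0 to 5. The cause of these changes was not tested. For both supplements together the count of 0 became 0 to 3. The mean correlation of the genes, 0.30, ran from 0.11 to 0.33 without 1 mouse. With the replicate number as a block, which the labels do not give as a pairing, there were 2 calls with age, 4 with the mixture and 0 otherwise. The mean correlation was then 0.24. Over all probe sets the block gave 5409 calls with age, against 5097, and 1338 with the mixture, against 970. With array medians set equal, 84.5% of all calls with age were higher, against 49.4% as deposited, and 9.83% with the mixture, against 36.1%. The mixture calls over all probe sets were 133 (quantile), 177 (cyclic loess), 0 with the β-actin covariate and 1 without old control mice 3 and 5, against 970. Signals near the limit of 184 and 5 mice a group restrict what the dim probe sets can show.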
